A study of Homo sapiens with 12 samples.

Results

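The transcript levels of 10 genes of the NF-kB system were examined in 4 lines of the human MCF10 progression series, derived from breast epithelium. The genes were 5 subunits of the transcription factor (NFKB1, NFKB2, REL, RELA, RELB) and 5 regulators that act in its feedback (NFKBIA, NFKBIE, NFKBIZ, TNFAIP3, BIRC3). They were taken by symbol from a table of 59427 genes, in which all 10 were found. MCF10A is a non-tumorigenic, immortalised line. MCF10AT1 is its HRAS G12V transformed derivative, MCF10DCIS stands for ductal carcinoma in situ, and MCF10CA1a is the metastatic member of the series. MCF10DCIS and MCF10CA1a are HRAS-derived lines as well. The labels name no treatment, and a single medium was used throughout, containing horse serum, cholera toxin, hydrocortisone (a glucocorticoid), epidermal growth factor and insulin. Each stage is represented by 1 line, so stage and line cannot be told apart. The labels give 3 libraries of total RNA per line, and the deposited table gives the authors' mean TPM (a level per transcript length, scaled to a sum of 1000000) for each line. Without values per library no level has an error, no difference has a p-value, and whether neighbouring lines differ beyond their spread was not measured. The depth of the libraries is unknown.

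NF-kB is a family of dimeric transcription factors that are held in the cytoplasm by inhibitors of the IkB family. In the canonical branch, cytokines and microbial products activate the IkB kinase complex, the inhibitor NFKBIA is degraded, and dimers of RELA or REL with p50, the product of NFKB1, enter the nucleus. In the non-canonical branch, the product of NFKB2 is processed to p52, which acts with RELB. Several of the genes that these dimers switch on encode the inhibitors and ubiquitin-editing proteins that end the response, so their transcripts are widely used as a readout of the pathway in epithelium.

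Promoters of several of these genes carry the motif of NF-kB itself, and stretches from 6 of them are printed here to show what the members share beside their levels. RefSeq promoter windows on GRCh38.p14, from 250 bases before to 50 after each annotated start, were found for 8 of the 10 genes, not for RELB and NFKBIE. They were searched on both strands for the kappaB consensus, a pattern of 10 bases that can overlap itself on opposite strands. Of these 8 genes 7 had a match in at least 1 window, the exception being RELA, while 13.3% of all 27305 genes had one. By window, 9 of 13 had a match, against 11.3% of 35116. Capitals mark each match, and the strand is that of the gene.
NFKBIA: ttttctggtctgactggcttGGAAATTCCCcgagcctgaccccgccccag
NFKBIZ: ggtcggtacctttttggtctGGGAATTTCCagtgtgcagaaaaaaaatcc
TNFAIP3: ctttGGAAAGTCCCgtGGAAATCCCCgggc
BIRC3: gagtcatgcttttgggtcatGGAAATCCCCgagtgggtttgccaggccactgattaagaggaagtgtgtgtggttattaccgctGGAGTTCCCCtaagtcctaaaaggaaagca
NFKB1: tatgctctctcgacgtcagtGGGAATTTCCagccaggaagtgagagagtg
NFKB2: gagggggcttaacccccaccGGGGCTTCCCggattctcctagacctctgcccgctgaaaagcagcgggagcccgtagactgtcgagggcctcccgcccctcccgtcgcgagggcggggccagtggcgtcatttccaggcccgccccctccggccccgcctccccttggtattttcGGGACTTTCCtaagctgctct

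The NFKBIA stretch is chr14:35404801-35404850 on the minus strand, and its match begins 81 bases before the start of transcription. The other 5 stretches are on the plus strand. For NFKBIZ the stretch is chr3:101827747-101827796 and the match begins 223 bases before the start. For TNFAIP3 it is chr6:137867188-137867217, with adjacent matches that begin 67 and 55 bases before the RefSeq start. All 30 of these bases lie in a GENCODE exon of TNFAIP3 with an earlier start. The BIRC3 stretch is chr11:102317265-102317378, with matches 199 and 135 bases before the start. The NFKB1 stretch is chr4:102501290-102501339, its match begins 49 bases before the start, and 11 of its bases are exonic in NFKB1. Of its 50 bases 30 are also exonic in another annotated gene, AF213884.3. The NFKB2 stretch is chr10:102395509-102395704 and precedes the third of 3 annotated starts. It lies within the NFKB2 transcription unit, with 12 of its 196 bases exonic, and its matches begin 176 and 21 bases before that start. A match is a description of the letters and not a measured binding site.

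The 4 lines had the marker pattern of epithelial cultures. All 9 epithelial markers were detected, and their summed level was between 1672 and 3192 TPM, though TP63 was only 0.901 TPM in MCF10A. The leukocyte list of 12 genes summed to between 6.78 and 20.4 TPM, highest in MCF10A, where CD14 was 11.9 TPM. PTPRC, the pan-leukocyte gene, reached at most 0.0128 TPM, and CD3D and MS4A1 were listed at 0 in every line. Structural and small non-coding RNAs took between 57.6% and 66.0% of the TPM, most in MCF10DCIS. Differences are given as log2(TPM + 1) of the first line minus the second, over the 13108 genes with at least 1 TPM in a line. A gene is called higher or lower when this difference is at least 1, a doubling or halving of TPM + 1. The median difference from MCF10A of all these genes was -0.066 for MCF10AT1, -0.38 for MCF10DCIS and -0.074 for MCF10CA1a. After leaving out structural, ribosomal protein and mitochondrial RNAs and rescaling to the same total (rescaled TPM), it was 0.041, -0.093 and 0.046. The deposited scale thus shifts most genes of MCF10DCIS downward, and both scales are given for the main differences of that line. Rescaled levels are larger than deposited ones (NFKB1 in MCF10A 46.6 in place of 16.0 TPM), while the same 1 is added. Differences of low genes are therefore damped less with rescaled TPM, apart from any change of scale between lines.

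Of the canonical subunits, NFKB1 and RELA varied little between the lines. NFKB1, whose product gives the p50 subunit, was 16.0 TPM in MCF10A, 15.1 TPM in MCF10AT1, 11.3 TPM in MCF10DCIS and 16.7 TPM in MCF10CA1a. RELA, the main transactivating subunit, was 14.9, 17.3, 10.5 and 16.6 TPM in the same order. The highest line exceeded the lowest by a factor of 1.48 for NFKB1 and 1.64 for RELA, and MCF10DCIS was the lowest for both. In MCF10DCIS the difference from MCF10A was -0.47 for NFKB1 and -0.46 for RELA, near the median of all genes, and with rescaled TPM it was -0.13 and -0.12. The profiles of this pair were the closest among the 10 genes, with a distance of 0.23 log2 units over the 4 lines.

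REL, which encodes c-Rel, a subunit best known from lymphocytes, had the lowest level of the 5 in every line. It was 2.00 TPM in MCF10A, 1.12 TPM in MCF10AT1, 1.40 TPM in MCF10DCIS and 2.95 TPM in MCF10CA1a. None of its differences from MCF10A reached the limit (-0.50, -0.32 and 0.40, or -0.58, -0.12 and 0.62 with rescaled TPM). The difference between MCF10CA1a and MCF10AT1 was 0.90, and 1.20 with rescaled TPM. The ratio of these 2 levels was nearly the same on both scales (2.63 and 2.66), and the added 1 weighs less on the rescaled one.

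The non-canonical subunits NFKB2 and RELB were high in both carcinoma lines. NFKB2 was 10.1 TPM in MCF10A, 7.77 TPM in MCF10AT1, 24.8 TPM in MCF10DCIS and 30.7 TPM in MCF10CA1a. The difference from MCF10A was -0.34 for MCF10AT1, 1.22 for MCF10DCIS and 1.51 for MCF10CA1a, and with rescaled TPM it was -0.24, 1.64 and 1.72. Ranked by level among the 13108 genes, NFKB2 stood at percentile 55.8 in MCF10A and 50.7 in MCF10AT1, and at 83.9 in MCF10DCIS and 83.6 in MCF10CA1a. The order of the 2 carcinoma lines was not settled: MCF10CA1a exceeded MCF10DCIS by 0.30 with the deposited TPM and by 0.081 with rescaled TPM, whereas with median-of-ratios scaling the difference was -0.059 and with quantile normalization -0.027.

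RELB was lowest in MCF10A and highest in MCF10CA1a. It was 2.57 TPM in MCF10A, 3.69 TPM in MCF10AT1, 6.61 TPM in MCF10DCIS and 10.2 TPM in MCF10CA1a. The differences from MCF10A were 0.39, 1.09 and 1.65, or 0.59, 1.61 and 1.99 with rescaled TPM. Between the carcinoma lines RELB differed by 0.55, or 0.38 with rescaled TPM, which is below the limit. Its percentile among all genes was 22.2 for MCF10A, 31.3 for MCF10AT1, 53.6 for MCF10DCIS and 57.7 for MCF10CA1a.

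**Figure D1:**
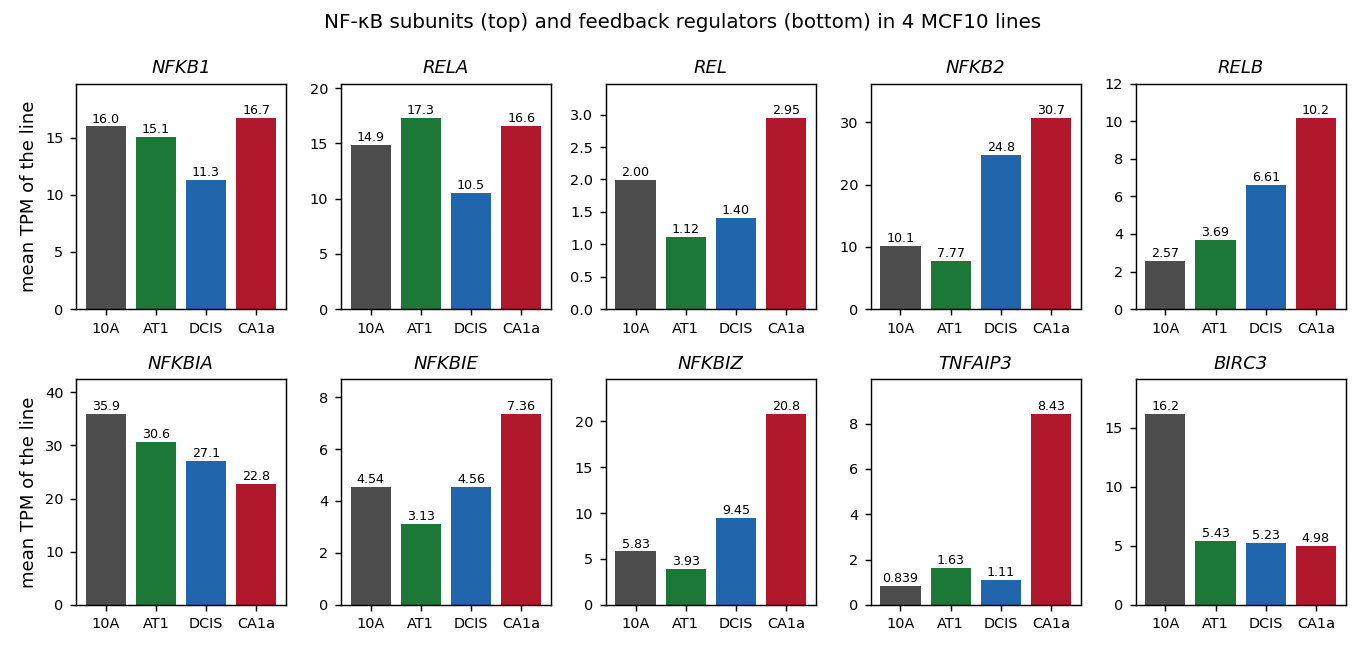
Mean TPM of the 10 genes in MCF10A (10A), MCF10AT1 (AT1), MCF10DCIS (DCIS) and MCF10CA1a (CA1a), 1 bar per line and with a separate vertical axis from 0 for each gene; the bars are the authors' means and carry no error. NFKB2 and RELB are high in the 2 lines at the right, TNFAIP3 in MCF10CA1a with 8.43 TPM, and BIRC3 in MCF10A with 16.2 TPM.

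The proportions of the subunits within a line do not depend on how that line is scaled, and they divided the lines into pairs. In MCF10A the 5 subunits summed to 45.5 TPM, of which NFKB1 was 35.1%, RELA 32.7%, NFKB2 22.2%, RELB 5.65% and REL 4.38%. MCF10AT1 had a similar make-up, with a sum of 45.0 TPM, 33.6% NFKB1, 38.5% RELA, 17.3% NFKB2 and 8.21% RELB. In MCF10DCIS the sum was 54.7 TPM and NFKB2 was the most abundant subunit transcript, with 45.4%, against 20.6% for NFKB1 and 19.3% for RELA. MCF10CA1a had the highest sum, 77.1 TPM, and NFKB2 was again the most abundant with 39.8%. RELB held 12.1% in MCF10DCIS and 13.2% in MCF10CA1a.

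The same shift was seen in ratios between partner genes. NFKB2 was 0.632 times NFKB1 in MCF10A and 0.515 times in MCF10AT1, but 2.20 times in MCF10DCIS and 1.84 times in MCF10CA1a. The ratio of RELB to RELA was 0.173 for MCF10A, 0.214 for MCF10AT1, 0.627 for MCF10DCIS and 0.613 for MCF10CA1a. The summed level of NFKB2 and RELB was 12.7 TPM in MCF10A, 11.5 TPM in MCF10AT1, 31.4 TPM in MCF10DCIS and 40.9 TPM in MCF10CA1a. That of NFKB1 and RELA was 30.9, 32.4, 21.8 and 33.3 TPM. With the deposited TPM the level of MCF10DCIS was thus the lowest for the canonical pair and the second highest for the non-canonical pair. Unlike the ratios, these sums depend on the scaling. In MCF10DCIS the difference from MCF10A was -0.47 for NFKB1 and -0.46 for RELA. With median-of-ratios scaling it was -0.039 and -0.034. These are proportions of transcripts, and neither the processing of the NFKB2 product nor dimer formation was measured.

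**Figure D2:**
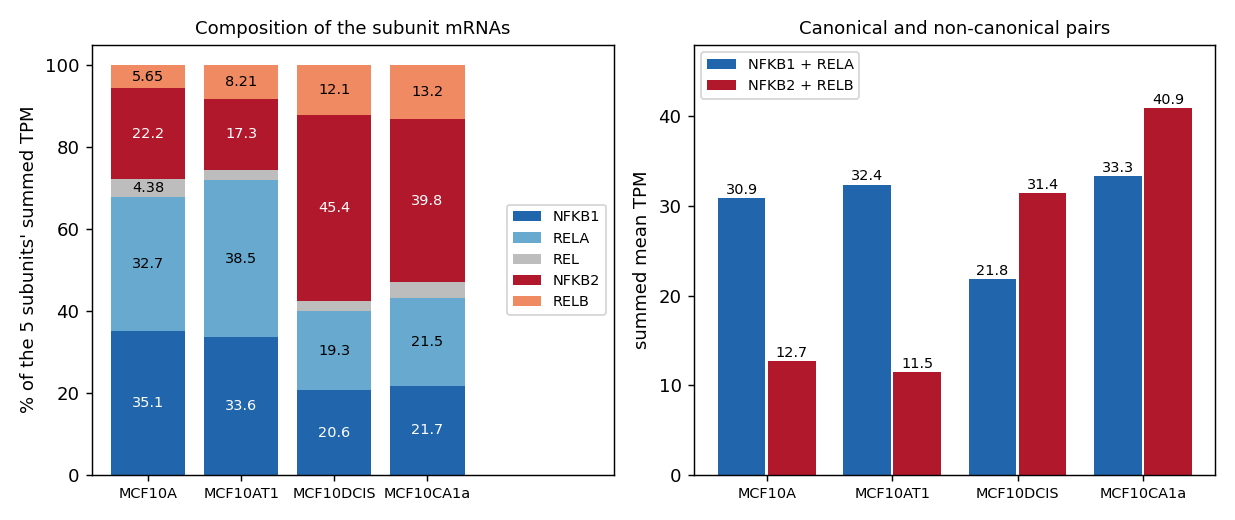
Left, share of each subunit in the summed TPM of the 5 subunit genes (percent) in each line; right, summed mean TPM of NFKB1 and RELA (blue) and of NFKB2 and RELB (red). NFKB2 and RELB together exceed NFKB1 and RELA in MCF10DCIS (31.4 and 21.8 TPM) and MCF10CA1a (40.9 and 33.3 TPM) and not in the other lines.

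Among the feedback regulators, NFKBIA had the highest level of the 10 genes in MCF10A, MCF10AT1 and MCF10DCIS and was lowest in MCF10CA1a. NFKBIA encodes IkB-alpha, the inhibitor that retains RELA dimers in the cytoplasm and is resynthesised as an early NF-kB target. It was 35.9 TPM in MCF10A, 30.6 TPM in MCF10AT1, 27.1 TPM in MCF10DCIS and 22.8 TPM in MCF10CA1a. The difference from MCF10A was -0.63 in MCF10CA1a, and between -0.50 and -0.55 with the other scalings, which did not reach the limit. In MCF10DCIS it was -0.39, and its sign depended on the scaling, with -0.034 for rescaled TPM and 0.052 for median-of-ratios. The ratio of NFKBIA to RELA was 2.42 for MCF10A, 1.77 for MCF10AT1, 2.57 for MCF10DCIS and 1.37 for MCF10CA1a.

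NFKBIE encodes IkB-epsilon, another cytoplasmic inhibitor, and NFKBIZ encodes IkB-zeta, a nuclear family member that binds p50 dimers and is needed for a subset of secondary inflammatory genes. NFKBIE was 4.54 TPM in MCF10A, 3.13 TPM in MCF10AT1, 4.56 TPM in MCF10DCIS and 7.36 TPM in MCF10CA1a. Its only difference past the limit was that of MCF10CA1a from MCF10AT1, 1.02, and this was 0.99 with quantile normalization. NFKBIZ was 5.83 TPM in MCF10A, 3.93 TPM in MCF10AT1, 9.45 TPM in MCF10DCIS and 20.8 TPM in MCF10CA1a. Its difference from MCF10A was -0.47 in MCF10AT1 and 1.68 in MCF10CA1a. In MCF10DCIS it was 0.61 with the deposited TPM and 1.03 with rescaled TPM, which is past the limit. MCF10CA1a exceeded MCF10DCIS by 1.06, or by 0.90 with rescaled TPM.

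NFKBIZ and NFKBIA, an inducible activator of selected targets and the general inhibitor, diverged between the lines. Their ratio, NFKBIZ over NFKBIA, was 0.162 for MCF10A, 0.128 for MCF10AT1, 0.348 for MCF10DCIS and 0.912 for MCF10CA1a.

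TNFAIP3 encodes A20, a ubiquitin-editing enzyme that ends signalling from the TNF and interleukin-1 receptors, and had the widest range of the 10 genes. It was 0.839 TPM in MCF10A, 1.63 TPM in MCF10AT1, 1.11 TPM in MCF10DCIS and 8.43 TPM in MCF10CA1a. Only MCF10CA1a was high, with a level 10.0 times that of MCF10A. The MCF10A level is below 1 TPM and has no error, so this ratio is uncertain. The difference between MCF10CA1a and MCF10A was 2.36, or 3.03 with rescaled TPM, where the ratio was 11.1. Adding 1 lessens differences of low genes, and more so with the deposited TPM. MCF10CA1a was also higher than MCF10DCIS by 2.16 and than MCF10AT1 by 1.84. The percentile of TNFAIP3 among all genes was 6.8 for MCF10A, 16.3 for MCF10AT1, 14.3 for MCF10DCIS and 52.4 for MCF10CA1a. An antisense gene, AL357060.1, overlaps TNFAIP3, as AP001362.2 does RELA, and no source used here gives the strand setting of the counting, so reads from the opposite strand may be included.

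BIRC3 went the opposite way. It encodes cIAP2, a ubiquitin ligase that joins the TNF receptor complex and, with its paralog cIAP1 (BIRC2), keeps the NFKB2-processing kinase NIK (MAP3K14) low. BIRC3 was 16.2 TPM in MCF10A, 5.43 TPM in MCF10AT1, 5.23 TPM in MCF10DCIS and 4.98 TPM in MCF10CA1a. Only MCF10A was high, and the 3 derived lines lay close together. The differences from MCF10A were -1.42, -1.46 and -1.52, or -1.40, -1.22 and -1.50 with rescaled TPM, and all 3 use the same MCF10A value. BIRC2 was 12.8 TPM in MCF10A, 10.1 TPM in MCF10AT1, 5.78 TPM in MCF10DCIS and 7.44 TPM in MCF10CA1a. The ratio of BIRC3 to BIRC2 was 1.26 in MCF10A and between 0.540 and 0.904 in the derived lines. The ratio of BIRC3 to TNFAIP3, both feedback genes, was 19.3 for MCF10A, 3.32 for MCF10AT1, 4.70 for MCF10DCIS and 0.591 for MCF10CA1a. The value for MCF10A rests on a TNFAIP3 level below 1 TPM. MAP3K14 itself was 5.14, 4.30, 3.93 and 3.59 TPM in the order MCF10A, MCF10AT1, MCF10DCIS and MCF10CA1a. The summed level of the leukocyte list was also highest in MCF10A, through CD14 and CSF1R (2.59 TPM), while CD68 was highest in MCF10CA1a with 6.41 TPM. PTPRC, CD3D and MS4A1 were at or near 0 as given above. A relation of these markers to the level of BIRC3 was not tested.

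By counts, MCF10AT1 had the fewest calls against MCF10A, in these genes as over all genes. In that comparison 0 of the 10 were higher, against 3.39% of all 13108 genes, and 1 was lower (BIRC3), against 5.87%. Both counts are near those shares for a set of 10. Their median difference was -0.28, beside -0.066 for all genes. In MCF10DCIS 2 were higher (NFKB2 and RELB), against 3.56%, and 1 was lower (BIRC3), against 14.8%. The median there was -0.16, beside -0.38 for all genes. With rescaled TPM 3 were higher, with NFKBIZ added, against 7.84%, and 1 lower, against 10.3%. In MCF10CA1a 4 were higher (NFKB2, RELB, NFKBIZ and TNFAIP3), against 5.97%, and 1 was lower (BIRC3), against 7.14%. The median in MCF10CA1a was 0.50, beside -0.074 for all genes. The genes were proposed with results of these data known, so these counts describe the set and do not test it.

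**Figure D3:**
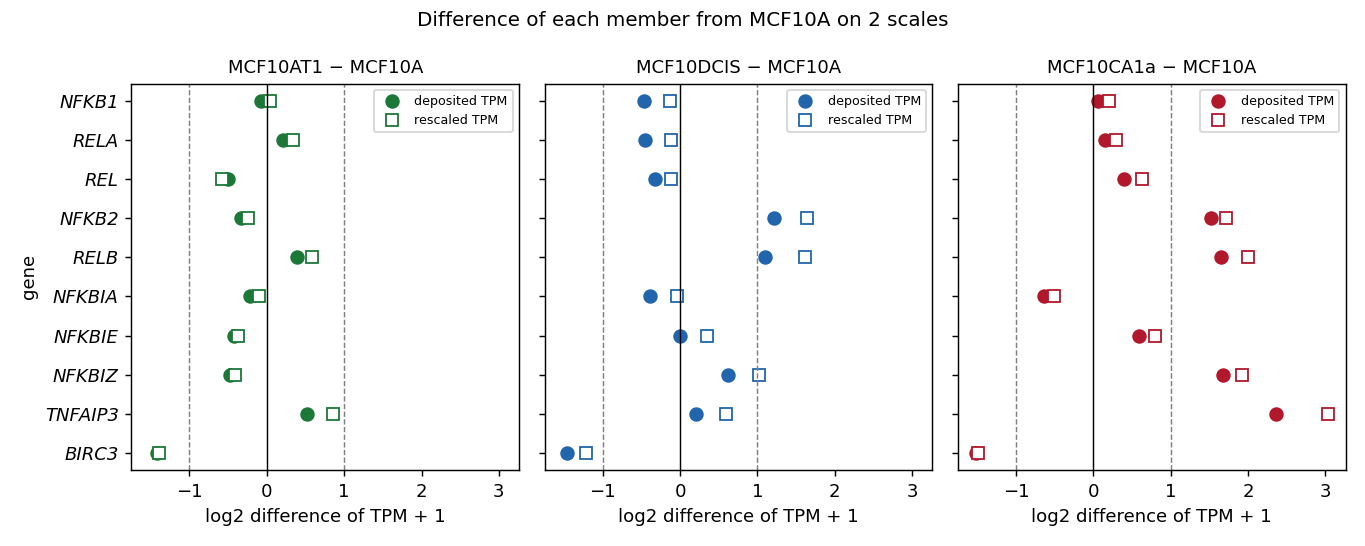
Log2 difference of TPM + 1 from MCF10A for each of the 10 genes (vertical axis) in the 3 derived lines; filled circles are deposited TPM, open squares rescaled TPM, and dashed lines mark the limit of 1 in either direction. BIRC3 lies left of the lower limit in every panel, and NFKB2 and RELB lie right of the upper limit in MCF10DCIS and MCF10CA1a.

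The derived lines were compared with each other in the same way. In MCF10CA1a against MCF10AT1, 5 genes were higher (NFKB2, RELB, NFKBIE, NFKBIZ and TNFAIP3), against 6% of all genes, and 0 lower, against 3.97%. With rescaled TPM, where the added 1 weighs less, REL was added, which made 6, against 8.37%. In MCF10DCIS against MCF10AT1, NFKB2 and NFKBIZ were higher by 1.56 and 1.09 (1.87 and 1.44 with rescaled TPM), against 3.23%, and 0 were lower, against 7.51%. Of the 10 genes 5 lay above 0 and 5 below, with a median of 0.067 beside -0.30 for all genes. RELB was added with rescaled TPM at 1.02, against 6.63%. In MCF10CA1a against MCF10DCIS, NFKBIZ and TNFAIP3 were higher, against 6.03%, and 0 lower, against 1.35%. The median of the 10 was 0.57 beside 0.30 for all genes, or 0.40 beside 0.14 with rescaled TPM. With rescaled TPM only TNFAIP3 was higher, by 2.44, against 6.01%.

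The genes upstream of NF-kB were described by role. Of 15 ligands only 6 reached 1 TPM in any line, and TNF itself reached at most 0.00265 TPM. The interleukin-1 genes, whose products signal to NF-kB through MYD88, were low in MCF10A and high in MCF10CA1a. IL1A was 0.813, 3.12, 14.6 and 75.4 TPM in the order MCF10A, MCF10AT1, MCF10DCIS and MCF10CA1a. IL1B was 0.382, 2.51, 9.44 and 135 TPM. The costimulatory ligand gene TNFSF9 had the reverse order, with 20.4, 6.92, 5.21 and 4.32 TPM. TNFSF12, which encodes TWEAK, an activator of the non-canonical branch, was 5.05 TPM in MCF10A against 0.961 TPM in MCF10CA1a. In MCF10CA1a 2 of the 6 were higher than in MCF10A, against 5.97% of all genes, and 2 lower, against 7.14%.

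Of 19 receptor genes 14 were entered, and in MCF10CA1a 3 were higher than in MCF10A, against 5.97% of all genes, and 2 lower, against 7.14%. Their median of -0.075 was that of all genes, -0.074. IL1RAP, the shared accessory chain of interleukin-1 receptors, was 3.49 TPM in MCF10A, 5.37 TPM in MCF10AT1, 21.1 TPM in MCF10DCIS and 16.3 TPM in MCF10CA1a. The ligand-binding chain IL1R1 was 2.82, 4.06, 0.342 and 0.325 TPM. It was thus low in the same 2 lines in which IL1RAP was high. The death receptor gene TNFRSF21 was 24.8 TPM in MCF10A against 84.6 TPM in MCF10CA1a, and TLR1, a receptor for bacterial lipopeptides, 9.54 and 1.39 TPM. TNFRSF1A, the main TNF receptor, was 28.4 TPM in MCF10A against 59.7 TPM in MCF10AT1. Receptors that feed the non-canonical branch differed in level. LTBR was between 40.8 and 50.6 TPM and TNFRSF12A, the receptor of TWEAK, between 113 and 195 TPM, while CD40 was at most 0.120 TPM. TNFRSF11A, which encodes RANK, was 3.07, 2.33, 1.04 and 1.47 TPM in the order MCF10A, MCF10AT1, MCF10DCIS and MCF10CA1a.

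Of 27 kinases and adaptors that act between receptors and subunits 26 were entered. In MCF10CA1a 1 was higher than in MCF10A and 1 lower, near the shares of all genes (5.97% and 7.14%), and the median was -0.18. With rescaled TPM 3 were higher, against 9.48%, and 0 lower, against 7.80%, with a median of -0.061. IRAK2, a kinase that sustains interleukin-1 signalling, was 0.366 TPM in MCF10A, 0.986 TPM in MCF10AT1, 2.24 TPM in MCF10DCIS and 7.96 TPM in MCF10CA1a. SHARPIN, a subunit of the linear ubiquitin ligase, was 30.3 TPM in MCF10A against 14.1 TPM in MCF10CA1a, a difference of -1.05 that was -0.94 with rescaled TPM. The IkB kinase genes themselves lay close together across the lines. CHUK was between 4.98 and 6.75 TPM, IKBKB between 14.5 and 19.8 TPM and IKBKG between 5.57 and 9.09 TPM. In MCF10DCIS 2 of the 26 were higher and 5 lower than in MCF10A, against 3.56% and 14.8%, and their median of -0.37 lay at that of all genes, -0.38. With rescaled TPM 2 were higher and 1 lower, against 7.84% and 10.3% (median -0.047). MYD88, the adaptor of interleukin-1 and Toll-like receptors, was 20.5 TPM in MCF10A against 6.37 TPM in MCF10DCIS.

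Of 18 other inhibitors 17 were entered, and in MCF10CA1a 2 were higher than in MCF10A, against 5.97% of all genes, and 1 lower, against 7.14%. Their median was -0.065, beside -0.074 for all genes. TNIP1, a binding partner of A20, was 49.4 TPM in MCF10A, 52.5 TPM in MCF10AT1, 66.4 TPM in MCF10DCIS and 137 TPM in MCF10CA1a. ZC3H12A, which encodes an RNase that degrades inflammatory transcripts, was 5.25 TPM in MCF10A against 15.0 TPM in MCF10CA1a. TNFAIP3 and TNIP1, whose products act together, were thus both highest in MCF10CA1a. PDLIM2, a nuclear ubiquitin ligase for RELA, was 62.9 TPM in MCF10A and 17.8, 25.3 and 25.4 TPM in MCF10AT1, MCF10DCIS and MCF10CA1a. TAX1BP1, an adaptor of A20, was 28.9 TPM in MCF10A and lowest in MCF10DCIS with 8.70 TPM. In MCF10DCIS 0 of the 17 were higher and 3 lower, against 3.56% and 14.8%, with a median of -0.51 beside -0.38 for all genes. With rescaled TPM 0 were higher and 2 lower, against 7.84% and 10.3%, with a median of -0.20 beside -0.093.

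With the filter of 1 TPM, the target genes outside the 10 had the highest median difference from MCF10A of the groups in MCF10CA1a. Of 36 such genes 28 were entered, and 14 were higher than in MCF10A, against 5.97% of all genes, and 2 lower, against 7.14%. The median was 1.04 beside -0.074 for all genes. Without a filter the median of all 36 targets was 0.36, below the feedback regulators (0.59) and the subunits (0.40). With a filter of 5 TPM it was 0.69 for 23 targets, below the subunits (0.83). CSF2, CSF3, CD83 and PTGS2, counted among the 14, were below 1 TPM in every line but MCF10CA1a. They thus entered only through the line in which they were called higher. The chemokine gene CXCL8 was 1.31 TPM in MCF10A, 2.02 TPM in MCF10AT1, 25.5 TPM in MCF10DCIS and 188 TPM in MCF10CA1a. PLAU, which encodes the urokinase plasminogen activator, was 6.19, 13.6, 7.07 and 117 TPM. The acute-phase gene SAA1 and the complement gene C3 were the 2 lower ones, by -1.24 and -1.16. SAA1 has a near-identical paralog, SAA2, which was called higher (1.47), so both values are uncertain.

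In MCF10DCIS 6 targets were higher and 4 lower than in MCF10A, against 3.56% and 14.8% (median 0.046). With rescaled TPM 10 were higher and 3 lower, against 7.84% and 10.3% (median 0.40). CXCL1 was 2.06 TPM in MCF10A against 22.5 TPM in MCF10DCIS, whereas the transcription factor gene IRF1 was 12.5 and 3.74 TPM and TNFAIP2 57.0 and 12.9 TPM. ICAM1, an adhesion molecule gene, was 6.52 TPM in MCF10DCIS and at most 0.376 TPM in the other lines. It is counted among the 6 and entered only through MCF10DCIS. In MCF10AT1 3 targets were higher and 5 lower, against 3.39% and 5.87% (median 0.13). With rescaled TPM 5 were higher and 5 lower, against 5.83% and 6.65% (median 0.27). CSF1 was 0.329 TPM in MCF10A against 8.89 TPM in MCF10AT1, and LCN2, a neutrophil lipocalin gene, 16.1 and 1.42 TPM. PTX3, counted among the 3, was 1.81 TPM in MCF10AT1 and at most 0.389 TPM in the other lines. It thus entered only through MCF10AT1. In MCF10CA1a against MCF10DCIS 12 targets were higher and 1, ICAM1, lower, against 6.03% and 1.35%, with a median of 0.79 beside 0.30 for all genes. With rescaled TPM 12 were higher and 4 lower, against 6.01% and 2.89%, with a median of 0.64 beside 0.14. With median-of-ratios scaling and with quantile normalization 9 were higher and 3 lower. Without a filter the median over all targets of the list was 0.58 with the deposited TPM. Among the 12 higher targets, CSF2, CSF3 and PTGS2 had entered only through MCF10CA1a, and ICAM1, the lower one, only through MCF10DCIS. For these genes the call follows in part from the filter.

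**Figure D4:**
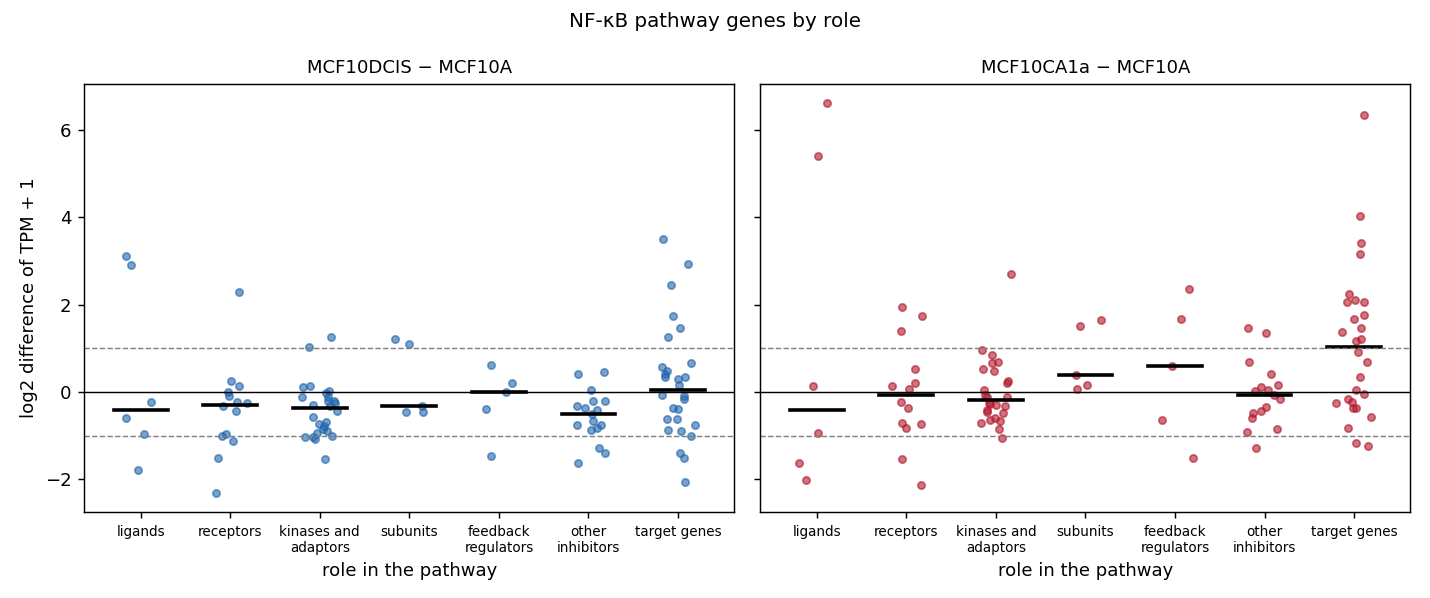
Log2 difference of TPM + 1 from MCF10A of each entered gene, grouped by role, in MCF10DCIS (left) and MCF10CA1a (right); 1 point is 1 gene, black bars are group medians and dashed lines mark the limit of 1. In MCF10CA1a the median of the target genes is 1.04 and that of kinases and adaptors -0.18.

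Each gene was also set beside its neighbours in the genome, with coordinates from GENCODE release 29 on GRCh38. NFKB1 lies on chromosome 4 from 102501329 to 102617302 and REL on chromosome 2 from 60881521 to 60931610, both on the plus strand. RELA (chromosome 11, 65653596 to 65663094), NFKBIA (chromosome 14, 35401511 to 35404749) and NFKBIE (chromosome 6, 44258166 to 44265788) lie on the minus strand. NFKB2 lies on chromosome 10 from 102394110 to 102402529 and RELB on chromosome 19 from 45001430 to 45038198. NFKBIZ lies on chromosome 3 from 101827991 to 101861022, TNFAIP3 on chromosome 6 from 137867188 to 137883312 and BIRC3 on chromosome 11 from 102317450 to 102339403, all 5 on the plus strand. The median difference of the genes within 5 Mb was set beside each gene's own difference, with rescaled TPM.

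RELB and TNFAIP3 differed in MCF10CA1a without a like difference around them. The 197 genes near RELB had a median of 0.020, beside 1.99 for RELB, and the 25 genes near TNFAIP3 had 0.047, beside 3.03 for TNFAIP3. For NFKB2 and NFKBIZ the surrounding genes were higher too, by a smaller amount. The 82 genes near NFKB2 had a median of 0.43 in MCF10CA1a and 0.37 in MCF10DCIS, and 63 and 60 of them were above 0. The 24 genes near NFKBIZ had a median of 0.62 in MCF10CA1a, with 20 above 0, beside 1.92 for NFKBIZ. The 32 genes near REL had a median of 0.48 in MCF10CA1a, with 29 above 0, and REL itself differed by 0.62. Near BIRC3 the 16 genes had medians of 0.20 for MCF10AT1, -0.38 for MCF10DCIS and -0.21 for MCF10CA1a. For the 9 genes within 2 Mb of BIRC3 the medians were -0.22, -0.52 and -0.46 in the same order, beside -1.40, -1.22 and -1.50 for BIRC3, so the sign for MCF10AT1 depended on the window. The part of copy number in these differences was not tested.

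**Figure D5:**
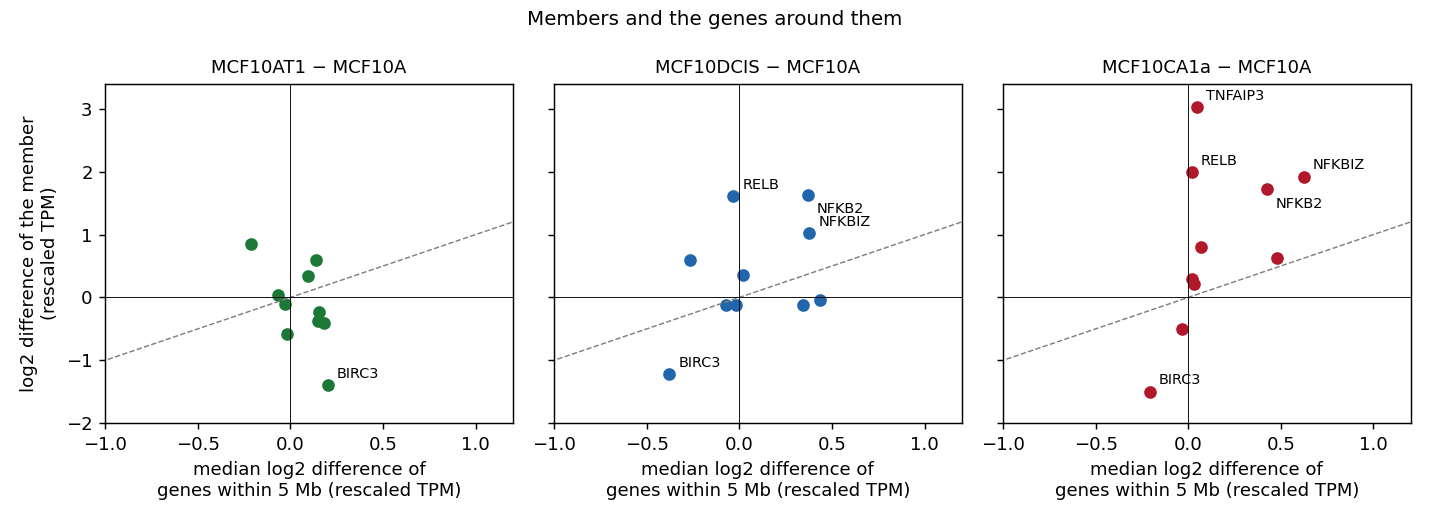
Log2 difference from MCF10A of each of the 10 genes (vertical axis) against the median log2 difference of genes within 5 Mb (horizontal axis), both with rescaled TPM, in the 3 derived lines; the dashed line marks equal values and genes past the limit of 1 are named. In MCF10CA1a TNFAIP3 (3.03) and RELB (1.99) stand above medians of 0.047 and 0.020.

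The genes whose levels followed the most variable of the 10 were listed by the distance between centred log2 profiles over the 4 lines, among 9289 genes. Among the nearest to NFKB2 were LGALS3BP (distance 0.17 log2 units) and LINC02015 (0.19). LGALS3BP, which encodes a secreted galectin-binding glycoprotein, was 79.0 TPM in MCF10A, 57.3 TPM in MCF10AT1, 157 TPM in MCF10DCIS and 209 TPM in MCF10CA1a. Nearest to NFKBIZ were MAPRE3 (0.22), MANSC1 (0.25) and RNF212 (0.28). Nearest to TNFAIP3 were AP000240.1 (0.24), FP236383.13 (0.26) and PGF (0.35), and only 11 genes lay within 0.5 of it. Each profile has only 4 points, and the likeness is given as a description. Within the set, NFKB2 was nearest to NFKBIZ (0.57) and RELB to NFKB2 (0.66).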

How the data were processed

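Bulk RNA-seq of 12 libraries, 3 per line, was summarised by the authors as 1 TPM column per line; per the file headers each deposited value is a mean TPM. Each column summed to 1000000 over 59427 symbols, and 100% of the values fitted an average over 3 libraries listed to 6 decimal places, to within 0.05 of the last place. STAR, edgeR and hg38 are named in the submitters' processing notes; no source used here gives their versions, the quantification program, the annotation or the strand setting. Depth is unknown, so no interval or floor is given.

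The genes and lists were chosen with earlier results of these data known. All 6 pairs of lines were compared as log2(TPM + 1) with a filter of 1 TPM in at least 1 line and a limit of 1; limma, planned only for values per library, could not be run. All 10 genes are named, and for each pathway list up to 2 called genes per direction with at least 5 TPM in the higher line, in the comparisons described. A few others (TNF, LTBR, TNFRSF12A, TNFRSF11A, CD40, IL1R1, MAP3K14, the IkB kinases, BIRC2 and SAA2) are named by role, after their values were seen. CSF2, CSF3, CD83 and PTGS2 are named because they passed the filter only through MCF10CA1a, and PTX3 because it did so only through MCF10AT1. For the 3 genes of widest range, the 3 nearest profiles with at least 5 TPM are named, except 1 that is not reported here. Alternatives were a pseudocount of 0.1, no filter, a filter of 5 TPM, rescaled TPM, median-of-ratios scaling and quantile normalization. Calculations used Python 3.11.15, pandas 2.3.3 and numpy 2.4.6 and were tested on simulated data. Positions are from GENCODE release 29 (54529 symbols matched) and promoters from RefSeq on GRCh38.p14.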

Additional observations from a re-analysis of the deposited data

How the results depend on the processing

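No paired analysis was possible because the table holds 1 mean per line, and leaving out single libraries or a replicate block could not be run for the same reason. Over 60 differences of single genes and the 6 alternatives, 341 of 354 values stayed on their side of the limit, 9 newly passed it, 4 no longer did and 0 reversed. REL dropped out with a filter of 5 TPM. In MCF10CA1a against MCF10DCIS the number of the 10 genes called higher was 2, and 1 with rescaled TPM, median-of-ratios and quantile normalization, where NFKBIZ fell to 0.90, 0.72 and 0.71. For the 5 pathway lists together, the number higher in MCF10AT1 than in MCF10A was 7, and 11 with a pseudocount of 0.1 and with rescaled TPM. The number lower in MCF10DCIS than in MCF10A was 16, and 24 with a pseudocount of 0.1, 9 with median-of-ratios and 7 with quantile normalization. The number lower in MCF10CA1a than in MCF10DCIS was 1, and 5 with a pseudocount of 0.1 and with rescaled TPM and 3 with the other 2 scalings; the cause of these moves was not tested. Over REL, RELA and RELB alone, RELB took 13.2% for MCF10A, 16.7% for MCF10AT1, 35.6% for MCF10DCIS and 34.2% for MCF10CA1a, a larger share by construction. Within 2 Mb the largest neighbourhood median, that of NFKBIZ, was 0.70 in place of 0.62, and that of BIRC3 in MCF10AT1 turned from 0.20 to -0.22. The sign of 5 of the 60 differences changed between scalings, all of them below the limit.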
